A study of Danio rerio with 6 samples.

Results

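Translation initiation and elongation factors were examined in cells sorted from zebrafish (Danio rerio) embryos with mosaic, ubiquitous or no β-catCA. A gene was taken as a member if its zebrafish symbol, in any letter case, began with *eif1* to *eif6*, *eef1* or *eef2* and if it was not at 0 in all libraries. The kinases that phosphorylate eIF2 (*eif2ak*) and eEF2 (*eef2k*) were left out. By this rule 71 of the 14132 genes that were not at 0 were members. The deposited values are regularized logarithms (rlog), that is, counts on a log2 scale after correction for library size, in which low counts are pulled to the average of their gene. Of the 71 members, 50 had a mean rlog of at least 2 and were tested among 3905 such genes. The mean rlog was 1.93 for *EIF6*, just under this filter, and 2.28 for *eif4ebp1*, just over it. The 21 members not tested had 2 to 38 counts in all 6 libraries together, and included *EIF2B1*, *EIF2B2* and *EIF2B3* of the eIF2 exchange factor, as well as *EIF4E* and *EEF2*, whose paralogs *eif4e1c* and *eef2b* were tested. A symbol was shared with another member by 10 members, for which the Ensembl identifier is given where they are named. *EIF1AD*, *EIF2A*, *EIF4A3*, *eif4enif1* and *EEF1AKMT1* are members by symbol alone and are not factors of the named complexes. Among the tested members, all 50 had a mean rlog of at least 2 in every group. Since rlog pulls low counts to the average of their gene, this does not show that none passed the filter through 1 group alone. Another 8 genes with such symbols were at 0 in every library and were not members.

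Initiation begins when eIF2, loaded with GTP and the initiator tRNA, joins eIF1, eIF1A, eIF3 and eIF5 on the small ribosomal subunit. The cap-binding factor eIF4E, the scaffold eIF4G and the helicase eIF4A bring the mRNA to this complex, and 4E-BP proteins block eIF4E by competing with eIF4G for it. During elongation, eEF1A delivers aminoacyl-tRNAs, the eEF1B complex recharges eEF1A with GTP, and eEF2 moves the ribosome along the mRNA. Early vertebrate embryos start from maternal stores of these factors and then transcribe the genes themselves after the genome is activated.

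The study asked which genes differ in cells whose Wnt/β-catenin activity is out of step with their neighbours. β-catCA is an N-terminally truncated, constitutively active mouse β-catenin, the effector of Wnt signalling. The paper used AB and India as wild-type strains and made its transgenic lines in AB. ‘Mosaic’ cells were GFP+ cells of embryos injected with a plasmid in which the heat-shock promoter *hsp70l* drives β-catCA. Only part of the cells carried it. The methods state that such mosaic embryos were exposed to heat shock. ‘Ubiquitous’ cells were GFP+ cells of HS:GFP-2A-β-catCA transgenic embryos. In discussing the RNA-Seq, the paper describes the activation of Wnt/β-catenin signalling as driven by heat shock. ‘Uninjected’ cells came from embryos without the construct and were sorted under similar conditions. Each group had 2 libraries, named lot 1 and lot 2, made from cells pooled over embryos. The labels give 9 hpf for all 3 groups, whereas the methods give an earlier collection. It is not given in the sources used here whether ‘Uninjected’ embryos were exposed to heat shock, and no library came from cells with GFP alone. The labels do not say that the lots were separate experiments, so p-values measure only the spread between these libraries.

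CEL-Seq2 tags the 3′ end of each mRNA molecule once, and the counts behind the rlog values were recovered by inverting the transformation. Totals ranged 14.2-fold over the 6 libraries. They were 217242 and 240223 counts in the ‘Mosaic’ libraries, 345593 and 34540 in the ‘Ubiquitous’ libraries, and 58352 and 489310 in the ‘Uninjected’ libraries. In the shallow libraries, ‘Ubiquitous’ lot 2 and ‘Uninjected’ lot 1, 33 and 24 of the 50 tested members had fewer than 10 counts. No count at all was found for 3 members in each of these libraries. The two-sided 95% exact Poisson interval of such a value of 0 reaches 107 CPM (counts per 1000000) in ‘Ubiquitous’ lot 2 and 63.2 CPM in ‘Uninjected’ lot 1, as for *eif5b* and *eif4ebp1*. All intervals given for counts cover counting error only.

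All 8 listed markers of blastoderm and gastrula cells had counts, and their summed level was 1777 and 2269 CPM in ‘Mosaic’, 3568 and 2635 CPM in ‘Ubiquitous’, and 3119 and 2579 CPM in ‘Uninjected’ libraries. Both ‘Mosaic’ sums lay below those of the other 4 libraries. Marker sums of other cell types also varied between libraries. The 6 germ cell markers summed to 23.0 and 12.5 CPM in ‘Mosaic’, 60.8 and 86.9 CPM in ‘Ubiquitous’, and 223 and 155 CPM in ‘Uninjected’ libraries. Some of these sums rest on few counts, since 86.9 CPM is 3 counts in ‘Ubiquitous’ lot 2, and only 1 of the 6 markers passed the filter. For 4 of 5 hatching gland and prechordal plate markers with counts, the sums were 152 and 137 CPM in ‘Mosaic’, 185 and 261 CPM in ‘Ubiquitous’, and 497 and 446 CPM in ‘Uninjected’. The 10 enveloping layer markers, of the epithelium that covers the embryo, gave 2532 and 1873 CPM in ‘Mosaic’, 1424 and 984 CPM in ‘Ubiquitous’, and 1594 and 3303 CPM in ‘Uninjected’. The 5 yolk syncytial markers stayed under 30 CPM in every library, and 5 of 7 maternal transcripts with counts summed to between 308 and 608 CPM. At the threshold used below, ‘Mosaic’ minus ‘Uninjected’ passed for 1 of 1 tested germ cell, 1 of 3 hatching gland and 1 of 6 blastoderm markers. ‘Ubiquitous’ minus ‘Uninjected’ passed for 1 of 3 hatching gland markers, and ‘Mosaic’ minus ‘Ubiquitous’ for 1 of 6 blastoderm and 1 of 4 enveloping layer markers. Of all genes, 1.38%, 0.487% and 1.33% passed in this order. The part of these cell types in the results below was not tested, and in such bulk samples fewer cells of a type and less RNA per cell cannot be told apart.

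The members together took 2.54% and 2.41% of all counts in the ‘Mosaic’ libraries, 2.04% and 2.10% in the ‘Ubiquitous’ libraries, and 2.16% and 2.37% in the ‘Uninjected’ libraries. The share averaged 2.48 ± 0.09% in ‘Mosaic’, 2.07 ± 0.04% in ‘Ubiquitous’ and 2.27 ± 0.15% in ‘Uninjected’ cells (SD, n = 2 each). Both ‘Mosaic’ libraries lay above all 4 others, by a narrow margin over ‘Uninjected’ lot 2. The 95% Wilson interval of ‘Mosaic’ lot 2 reached down to 2.35%, and that of ‘Uninjected’ lot 2 reached up to 2.42%. For the eIF3 subunits, ‘Uninjected’ lot 2 held the largest share, 0.421%, against 0.327% and 0.361% in ‘Mosaic’.

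**Figure D1:**
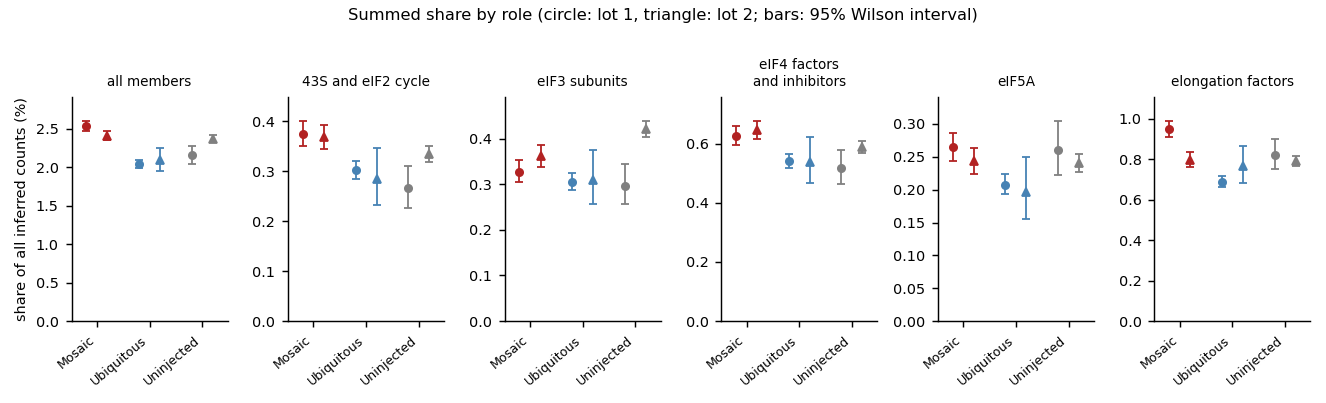
Share of all inferred counts (%, y axis from 0) taken by all members and by each role, for the 2 libraries of ‘Mosaic’, ‘Ubiquitous’ and ‘Uninjected’; bars are 95% Wilson intervals. For all members the ‘Mosaic’ libraries sit at 2.54% and 2.41%, above the ‘Ubiquitous’ libraries at 2.04% and 2.10%.

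In each role, the ‘Mosaic’ shares lay above the ‘Ubiquitous’ shares in all 4 pairings of their libraries. Elongation factors, 11 members, took 0.949% and 0.797% of the counts in ‘Mosaic’ against 0.687% and 0.767% in ‘Ubiquitous’ cells. Here *eef1a1l1* alone gave 1362 of 2061 and 1323 of 1914 counts in ‘Mosaic’, and 1492 of 2374 and 184 of 265 in ‘Ubiquitous’ libraries. Of the 6 tested elongation factors, only *eef1a1l1* had both ‘Mosaic’ rlog values above both ‘Ubiquitous’ values, where 28.1% of all genes did. The eIF4 factors and their inhibitors, 24 members, took 0.627% and 0.645% in ‘Mosaic’ against 0.540% and 0.539% in ‘Ubiquitous’ cells. Of these counts, *EIF4A3* gave 522 of 1361 and 703 of 1549 in ‘Mosaic’, and 697 of 1867 and 88 of 186 in ‘Ubiquitous’ libraries. The 18 members grouped by symbol as small-subunit complex (43S) and eIF2 cycle included *EIF1*, *EIF5* and *eif5b* besides eIF2 and its exchange factor. *EIF1AD* and *EIF2A*, members by symbol alone, were also among the 18. The shares of the 18 were 0.375% and 0.368% in ‘Mosaic’, and 0.302% and 0.284% in ‘Ubiquitous’ cells. The 2 eIF5A genes took 0.264% and 0.244% in ‘Mosaic’, and 0.208% and 0.197% in ‘Ubiquitous’ cells. In each of the 5 roles the Wilson interval of ‘Ubiquitous’ lot 2 overlapped that of at least 1 ‘Mosaic’ library, whereas over all members it overlapped neither. Shares compare a library with its own total, and no test was run on sums over members.

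Levels of the tested members spanned 179-fold, with library means of 29.7 CPM for *eif4ebp1* and 5316 CPM for *eef1a1l1*. Since each mRNA molecule is counted once at its 3′ end, these CPM are on a molecule scale without division by gene length; whether the 3′ end of each gene is annotated in full was not tested. The 5 highest members, *eef1a1l1*, *EIF4A3*, *EIF3CL*, *EEF1G* and *eif5a*, held between 48.6% and 56.6% of the member counts in each library. Paralogs contributed unequally. Within eEF1A, *eef1a1l1* gave 99.9% of the counts pooled over the libraries. Likewise, *eef2b* gave 92.4% of eEF2, *EIF4G1* 93.4% of the eIF4G1 and eIF4G3 genes, *eif4e1c* 92.1% of class I eIF4E, and *EIF1* 89.2% of eIF1. The eIF5A pair was even, with 49.5% from *eif5a* and 50.5% from *EIF5A2*. Reads that fit near-identical copies may have been split or dropped in counting, so paralog shares are uncertain.

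**Figure D2:**
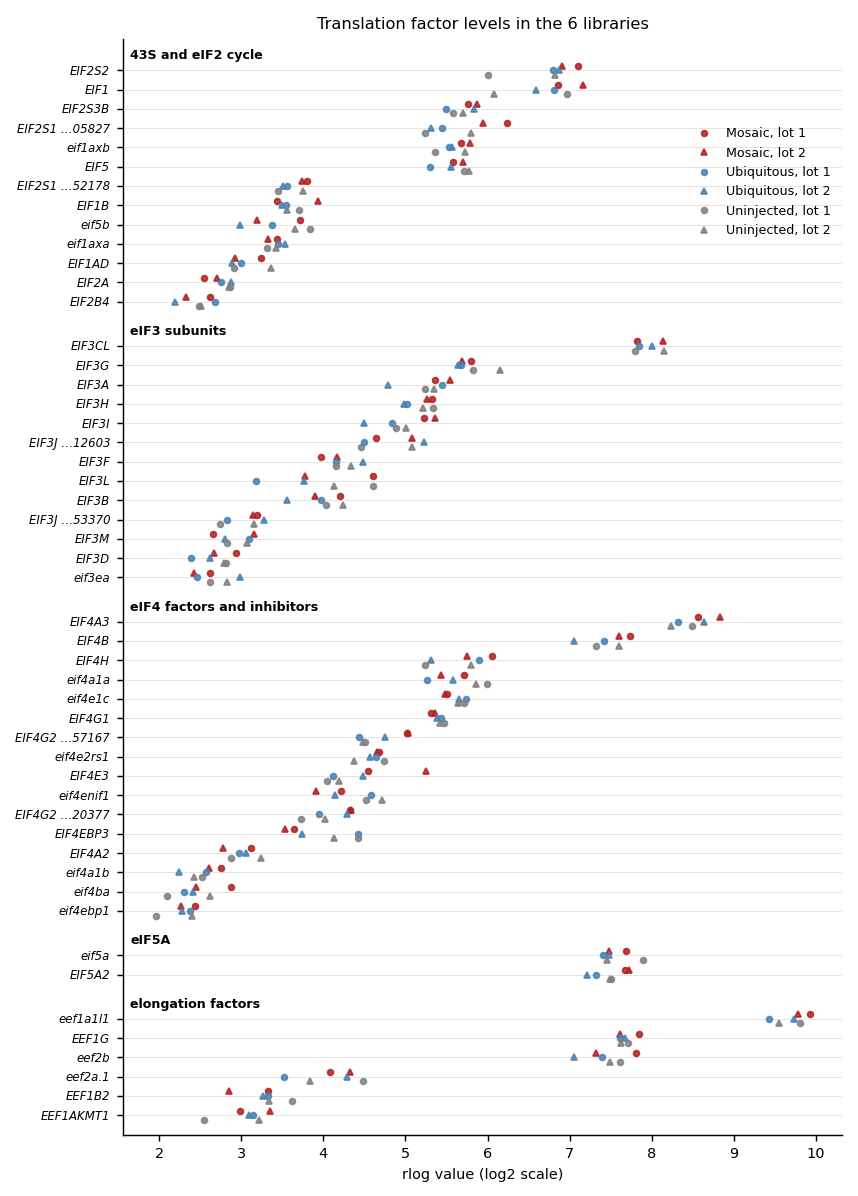
rlog values (x axis, log2 scale) of the 50 tested members, in rows by role, in the 6 libraries (circles, lot 1; triangles, lot 2). Symbols shared by several genes carry the last 5 digits of the Ensembl number. *eef1a1l1* stands highest, and for most members the 3 groups lie within 1 log2 unit of each other.

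Between ‘Mosaic’ and ‘Uninjected’ cells, 0 of the 50 members passed the threshold (limma, Benjamini-Hochberg adjusted p under 0.1 over 3905 genes), where 1.38% of all genes tested did, and none passed with voom weights on the inferred counts. At an unadjusted p under 0.05 there were 6 members, against 11.3% of all genes. Of these 6, 4 had positive differences (5.66% of all genes) and 2 negative ones (5.61%). The median difference was 0.05 over the members and 0.02 over all genes tested, on the rlog scale. A positive difference was found for 29 of 50 members, and for 53.3% of all genes. Both ‘Mosaic’ values lay above both ‘Uninjected’ values for 12 members (23.1% of all genes) and below them for 10 (19.9%).

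Between ‘Ubiquitous’ and ‘Uninjected’ cells, again 0 members passed with limma, with or without voom weights, where 0.487% of all genes tested passed. An unadjusted p under 0.05 was seen for 3 members, against 6.76% of all genes. All 3 had negative differences (3.89% of all genes), and none had a positive one (2.87%). The median difference was -0.05 for the members and -0.03 for all genes. A positive difference was found for 19 of 50 members, and for 45.0% of all genes. In the 4 deepest libraries alone this count was 12, and without ‘Uninjected’ lot 1 it was also 12, where 48.0% and 42.8% of all genes were positive. Without ‘Ubiquitous’ lot 1 it was 22, where 40.3% of all genes were positive, and the medians were -0.07 over the members and -0.08 over all genes. Both ‘Ubiquitous’ values lay above both ‘Uninjected’ values for 1 member (13.7% of all genes) and below them for 13 (19.6%). Of these 13, 6 were eIF3 subunits, which made up 13 of the 50 tested members. In ‘Ubiquitous’ lot 2 these 6 subunits had between 1 and 10 counts.

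Between ‘Mosaic’ and ‘Ubiquitous’ cells, 0 members passed with limma, with or without voom weights, where 1.33% of all genes tested passed. For 4 members the unadjusted p was under 0.05, against 13.0% of all genes. All 4 had positive differences (7.45% of all genes), and none had a negative one (5.51%). However, 39 of 50 members had a positive difference, where 56.7% of all genes did. The median difference was 0.17 over the members and 0.05 over all genes. Both ‘Mosaic’ values exceeded both ‘Ubiquitous’ values for 21 members (28.1% of all genes) and lay below them for 5 (18.5%). With quantile normalization 33 members were positive, where 51.3% of all genes were. This comparison shares the ‘Mosaic’ libraries with the first and the ‘Ubiquitous’ libraries with the second, so the 3 sets of values are not independent.

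The excess of positive differences over ‘Ubiquitous’ depended on which ‘Ubiquitous’ library was used. Without the shallow ‘Ubiquitous’ lot 2, 38 of 50 members were positive with a median of 0.15, where all genes had 52.4% and a median of 0.02. Without the deep ‘Ubiquitous’ lot 1, 35 members were positive with a median of 0.11, and all genes then had 60.2% and a median of 0.10. These counts of positive differences by library were chosen after seeing the data.

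**Figure D3:**
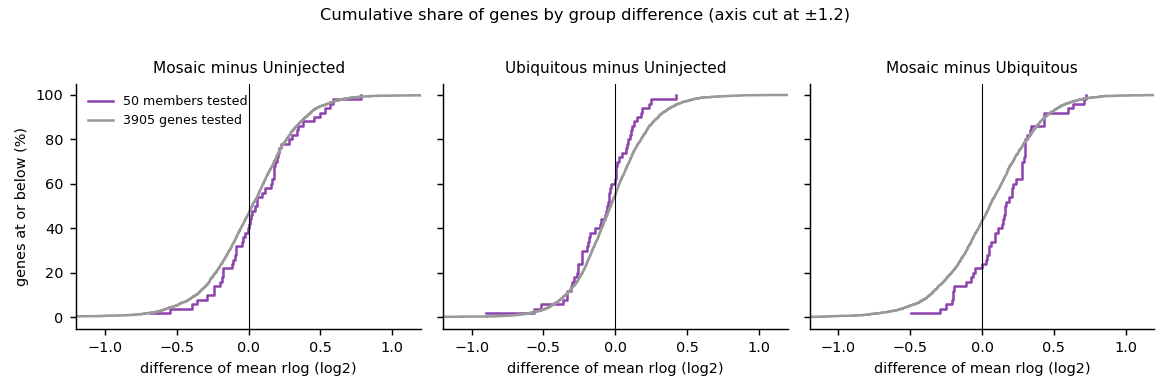
Cumulative share of genes (y axis, %) by difference of mean rlog (x axis, log2) for the 50 members tested and all 3905 genes tested, in the 3 comparisons. The member curve runs close to that of all genes for ‘Mosaic’ minus ‘Uninjected’ (medians 0.05 and 0.02) and lies to its right over most of the range for ‘Mosaic’ minus ‘Ubiquitous’ (0.17 and 0.05).

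Among the factors of the eIF2 cycle, the 2 genes named *EIF2S1* encode the α subunit of eIF2, whose phosphorylation reduces initiation. The higher one, *EIF2S1* (ENSDARG00000005827), had 116 and 97 counts in ‘Mosaic’ (534 and 404 CPM), 93 and 7 in ‘Ubiquitous’ (269 and 203 CPM), and 11 and 192 in ‘Uninjected’ libraries (189 and 392 CPM). Both ‘Mosaic’ libraries lay above the other 4, though ‘Uninjected’ lot 2 lay close to ‘Mosaic’ lot 2. The difference of ‘Mosaic’ from ‘Ubiquitous’ was 0.71 (SE 0.24, limma adjusted p = 0.209), and that from ‘Uninjected’ was 0.57 (SE 0.24, limma adjusted p = 0.377). Without the shallow ‘Uninjected’ lot 1 the difference from ‘Uninjected’ was 0.29. The lower copy, *EIF2S1* (ENSDARG00000052178), averaged 92.0 CPM in ‘Mosaic’, 65.1 in ‘Ubiquitous’ and 74.8 in ‘Uninjected’ cells, and its differences lay between -0.07 and 0.23.

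*EIF2S2*, the β subunit of eIF2, had 911 and 758 CPM in ‘Mosaic’, 726 and 753 CPM in ‘Ubiquitous’, and 308 and 779 CPM in ‘Uninjected’ libraries. Only ‘Uninjected’ lot 1, with 18 counts, stood apart. The difference of ‘Mosaic’ from ‘Uninjected’ cells was 0.59 (SE 0.26, limma adjusted p = 0.402). It was 0.18 without ‘Uninjected’ lot 1 and 0.99 without ‘Uninjected’ lot 2. The γ subunit, *EIF2S3B*, had 345 and 375 CPM in ‘Mosaic’, 278 and 376 CPM in ‘Ubiquitous’, and 274 and 354 CPM in ‘Uninjected’ libraries. On the CPM scale its groups overlapped, and on the rlog scale both ‘Mosaic’ values lay above both ‘Uninjected’ values by a narrow margin.

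*EIF1*, which guards the choice of start codon, had 746 and 949 CPM in ‘Mosaic’, 735 and 579 CPM in ‘Ubiquitous’, and 788 and 409 CPM in ‘Uninjected’ libraries. The ‘Uninjected’ lots lay on both sides of ‘Mosaic’ lot 1, and their 95% Poisson intervals did not overlap. The difference of ‘Mosaic’ from ‘Uninjected’ was 0.49 (SE 0.27, limma adjusted p = 0.527). It was 0.94 without ‘Uninjected’ lot 1 (limma adjusted p = 0.184) and 0.05 without ‘Uninjected’ lot 2. Its minor paralog *EIF1B* had 59.8 and 112 CPM in ‘Mosaic’, 72.3 and 57.9 CPM in ‘Ubiquitous’, and 85.7 and 77.7 CPM in ‘Uninjected’ libraries. ‘Ubiquitous’ minus ‘Uninjected’ was 0.18 (SE 0.27) for *EIF1* and -0.11 (SE 0.24) for *EIF1B*, both smaller than their errors.

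*eif5b*, the GTPase that joins the ribosomal subunits, had 21 and 11 counts in ‘Mosaic’, 22 and 0 counts in ‘Ubiquitous’, and 7 and 47 counts in ‘Uninjected’ libraries. This corresponds to 96.7 and 45.8 CPM in ‘Mosaic’, 63.7 and 0 CPM in ‘Ubiquitous’, and 120.0 and 96.1 CPM in ‘Uninjected’. Both ‘Ubiquitous’ values lay below both ‘Uninjected’ values, but the Poisson interval of the 0 in ‘Ubiquitous’ lot 2 reaches 107 CPM, above the 96.1 CPM of ‘Uninjected’ lot 2. The difference of ‘Ubiquitous’ from ‘Uninjected’ was -0.57 (SE 0.25, limma adjusted p = 0.687), and -0.37 without ‘Ubiquitous’ lot 2. *EIF5*, which triggers GTP hydrolysis by eIF2, gave 314 CPM in ‘Mosaic’, 263 in ‘Ubiquitous’ and 356 in ‘Uninjected’ cells on average.

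The eIF1A paralogs, which help place the initiator tRNA, differed in sign between comparisons. *eif1axb*, with 82.8% of their pooled counts, had 327 and 354 CPM in ‘Mosaic’, 292 and 290 CPM in ‘Ubiquitous’, and 223 and 372 CPM in ‘Uninjected’ libraries. *eif1axa* had 69.0 and 58.3 CPM in ‘Mosaic’, 72.3 and 86.9 CPM in ‘Ubiquitous’, and 51.4 and 73.6 CPM in ‘Uninjected’ libraries. ‘Mosaic’ minus ‘Ubiquitous’ was 0.19 (SE 0.23) for *eif1axb* and -0.11 (SE 0.22) for *eif1axa*, both smaller than their errors. For *EIF2B4*, a subunit of the exchange factor that reloads eIF2 with GTP, the means were 35.5, 26.0 and 37.6 CPM in ‘Mosaic’, ‘Ubiquitous’ and ‘Uninjected’ cells, and the other eIF2B genes were under the filter. *EIF2A*, a tRNA-binding protein that is no subunit of eIF2, averaged 32.5 CPM in ‘Mosaic’, 50.7 in ‘Ubiquitous’ and 52.3 in ‘Uninjected’ cells.

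Of 13 tested eIF3 subunit genes, *EIF3L* and *EIF3I* showed the largest differences. *EIF3L*, a peripheral subunit, had 42 and 18 counts in ‘Mosaic’ (193 and 74.9 CPM), 12 and 2 in ‘Ubiquitous’ (34.7 and 57.9 CPM), and 12 and 61 in ‘Uninjected’ libraries (206 and 125 CPM). The ‘Ubiquitous’ libraries were the lowest 2 of the 6. ‘Ubiquitous’ minus ‘Uninjected’ was -0.90 (SE 0.29, limma adjusted p = 0.426), and ‘Mosaic’ minus ‘Ubiquitous’ was 0.72 (SE 0.29, limma adjusted p = 0.295). The ‘Mosaic’ lots differed beyond their Poisson intervals, and ‘Mosaic’ minus ‘Ubiquitous’ was 0.31 without ‘Mosaic’ lot 1, 1.14 without ‘Mosaic’ lot 2 and 0.43 without ‘Ubiquitous’ lot 1. Without ‘Ubiquitous’ lot 2 it was 1.01 (limma adjusted p = 0.278).

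*EIF3I*, a WD-repeat subunit, had 55 and 68 counts in ‘Mosaic’ (253 and 283 CPM), 61 and 3 in ‘Ubiquitous’ (177 and 86.9 CPM), and 10 and 108 in ‘Uninjected’ libraries (171 and 221 CPM). Its ‘Mosaic’ values were the highest 2 of the 6. ‘Mosaic’ minus ‘Ubiquitous’ was 0.63 (SE 0.23, limma adjusted p = 0.236), and ‘Mosaic’ minus ‘Uninjected’ was 0.34 (SE 0.23, limma adjusted p = 0.612).

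*EIF3CL*, of the core subunit eIF3c and the highest eIF3 gene, had 1390 and 1773 CPM in ‘Mosaic’, 1464 and 1621 CPM in ‘Ubiquitous’, and 1302 and 1995 CPM in ‘Uninjected’ libraries. Its groups overlapped, and its 3 differences lay between -0.05 and 0.05, with a 95% interval of -0.51 to 0.51 for ‘Mosaic’ minus ‘Uninjected’. The other core scaffold subunit, *EIF3A*, averaged 285 CPM in ‘Mosaic’, 204 in ‘Ubiquitous’ and 252 in ‘Uninjected’ cells. Its ‘Ubiquitous’ libraries had 101 and 4 counts (292 and 116 CPM), and lot 1 lay between the ‘Mosaic’ lots at 262 and 308 CPM. *EIF3B* averaged 108 CPM in ‘Mosaic’, 65.1 in ‘Ubiquitous’ and 123 in ‘Uninjected’ cells. Its ‘Ubiquitous’ libraries had 35 and 1 counts (101 and 29.0 CPM), and lot 1 lay between the ‘Mosaic’ lots at 129 and 87.4 CPM. Thus the *EIF3CL* level exceeded that of its partners in every group, on the CPM scale. The remaining subunits were low to moderate. *EIF3G*, an RNA-binding subunit, averaged 331 CPM in ‘Mosaic’, 305 in ‘Ubiquitous’ and 433 in ‘Uninjected’ cells. *EIF3H* (ENSDARG00000102452) averaged 252 CPM in ‘Mosaic’, 187 in ‘Ubiquitous’ and 255 in ‘Uninjected’ cells. *EIF3D*, which can bind the cap of some mRNAs, averaged 48.7 CPM in ‘Mosaic’, 26.1 in ‘Ubiquitous’ and 51.3 in ‘Uninjected’ cells. The ‘Ubiquitous’ mean of *EIF3D* rests on 8 and 1 counts. *eif3ea* and *EIF3F* had lower means in ‘Mosaic’, at 30.9 and 97.8 CPM, than in ‘Ubiquitous’ cells, at 57.9 and 143 CPM, with differences of -0.20 (SE 0.22) and -0.25 (SE 0.23). These ‘Ubiquitous’ means rest largely on lot 2, with 3 and 6 counts, and without it the differences were 0.06 for *eif3ea* and -0.09 for *EIF3F*. Over the 13 genes the median difference was -0.18 for ‘Ubiquitous’ minus ‘Uninjected’, -0.00 for ‘Mosaic’ minus ‘Uninjected’ and 0.11 for ‘Mosaic’ minus ‘Ubiquitous’.

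**Figure D4:**
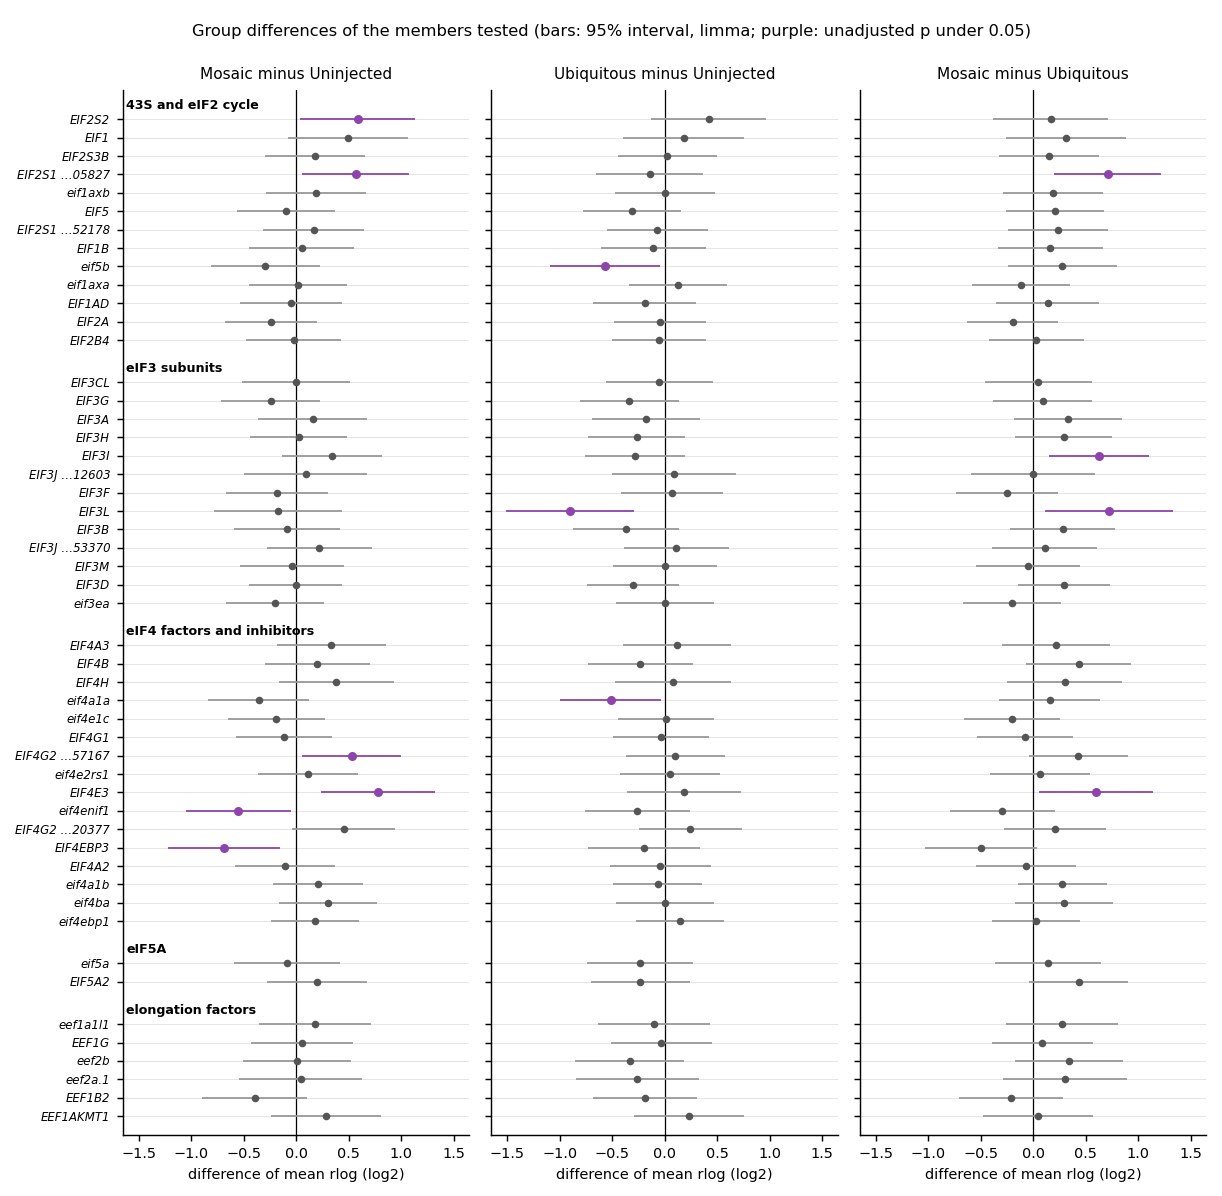
Differences of mean rlog (x axis, log2) of the 50 tested members, by role, in the 3 comparisons; bars are 95% intervals from limma and purple marks an unadjusted p under 0.05. The purple members number 6, 3 and 4 from left to right, and none passed after adjustment over 3905 genes.

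The eIF4 group made up 16 of the 50 tested members. Of these 16, 4 had an unadjusted p under 0.05 between ‘Mosaic’ and ‘Uninjected’ cells, where 11.3% of all genes did. The difference was positive for *EIF4E3* and *EIF4G2* (ENSDARG00000057167), and negative for *EIF4EBP3* (ENSDARG00000041607) and *eif4enif1*. In ‘Ubiquitous’ minus ‘Uninjected’ and in ‘Mosaic’ minus ‘Ubiquitous’, 1 of the 16 did, where 6.76% and 13.0% of all genes did. *EIF4E3*, a cap-binding protein of the eIF4E family, had 33 and 73 counts in ‘Mosaic’ (152 and 304 CPM), 34 and 5 in ‘Ubiquitous’ (98.4 and 145 CPM), and 4 and 56 in ‘Uninjected’ libraries (68.5 and 114 CPM). Both ‘Mosaic’ values lay above the other 4, by a narrow margin for lot 1 over ‘Ubiquitous’ lot 2. ‘Mosaic’ minus ‘Uninjected’ was 0.78 (SE 0.26, limma adjusted p = 0.247) and ‘Mosaic’ minus ‘Ubiquitous’ was 0.60 (SE 0.26, limma adjusted p = 0.336). The ‘Mosaic’ lots differed beyond their Poisson intervals. Without ‘Mosaic’ lot 2 the differences were 0.42 and 0.24, and without ‘Mosaic’ lot 1 they were 1.14 and 0.96.

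*EIF4EBP3* (ENSDARG00000041607), a 4E-BP that holds eIF4E away from eIF4G, had its lowest mean level in ‘Mosaic’ cells. It had 14 and 13 counts in ‘Mosaic’ (64.4 and 54.1 CPM), 57 and 2 in ‘Ubiquitous’ (165 and 57.9 CPM), and 10 and 62 in ‘Uninjected’ libraries (171 and 127 CPM). Both ‘Mosaic’ values lay below both ‘Uninjected’ values. ‘Mosaic’ minus ‘Uninjected’ was -0.69 (SE 0.25, limma adjusted p = 0.299) and ‘Mosaic’ minus ‘Ubiquitous’ was -0.49 (SE 0.25, limma adjusted p = 0.418). On the CPM scale ‘Ubiquitous’ lot 2, with its 2 counts, fell between the ‘Mosaic’ lots. ‘Mosaic’ minus ‘Ubiquitous’ was -0.15 without ‘Ubiquitous’ lot 1 and -0.83 without ‘Ubiquitous’ lot 2 (limma adjusted p = 0.290). The other tested 4E-BP gene, *eif4ebp1*, had 41.4 and 29.1 CPM in ‘Mosaic’, 37.6 and 29.0 CPM in ‘Ubiquitous’, and 0 and 40.9 CPM in ‘Uninjected’ libraries. Its ‘Mosaic’ minus ‘Uninjected’ difference was 0.18 (SE 0.20), within its error, and -0.04 without ‘Uninjected’ lot 1.

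**Figure D5:**
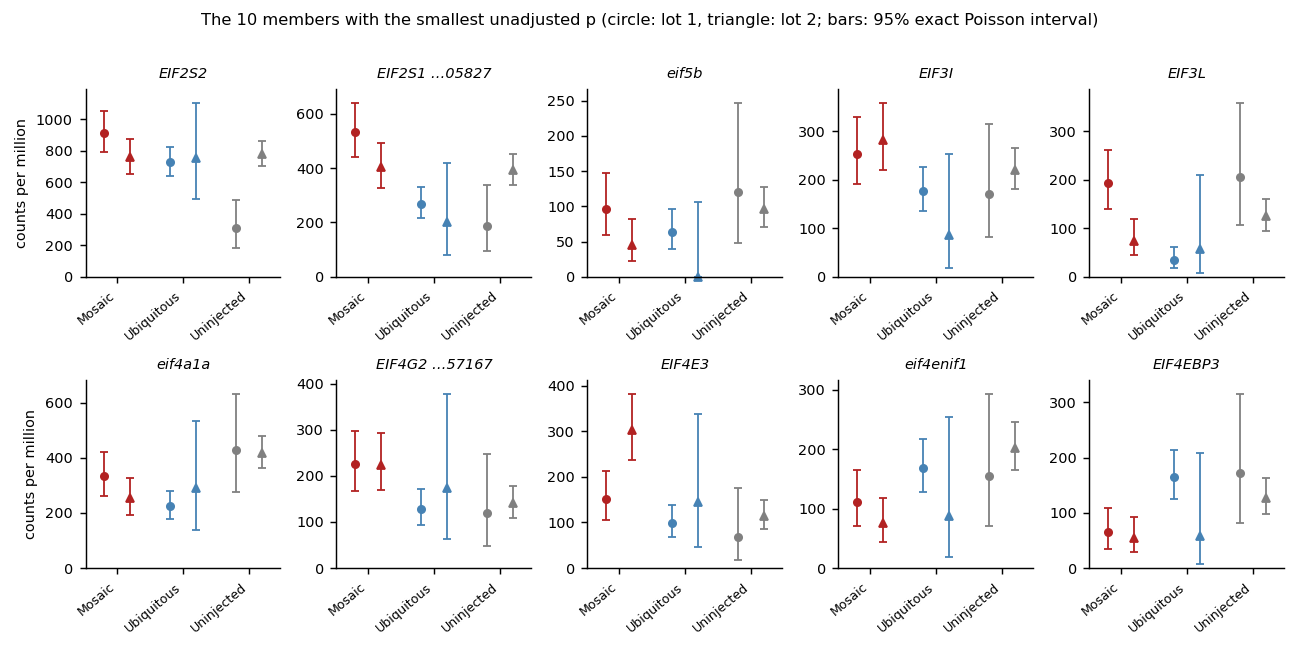
Level (CPM, y axes from 0) of the 10 members with the smallest unadjusted p over the 3 comparisons, in the 2 libraries of ‘Mosaic’, ‘Ubiquitous’ and ‘Uninjected’; bars are 95% exact Poisson intervals. The bars of ‘Ubiquitous’ lot 2 and ‘Uninjected’ lot 1 are the longest, and for *EIF4E3* the ‘Mosaic’ lots stand apart at 152 and 304 CPM.

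*eif4enif1*, which encodes an eIF4E-binding transport protein (4E-T), had 110.5 and 74.9 CPM in ‘Mosaic’, 168 and 86.9 CPM in ‘Ubiquitous’, and 154 and 202 CPM in ‘Uninjected’ libraries. The ‘Mosaic’ values lay below the ‘Uninjected’ values, and ‘Ubiquitous’ spanned both groups. ‘Mosaic’ minus ‘Uninjected’ was -0.55 (SE 0.24, limma adjusted p = 0.385). The major class I cap-binding gene, *eif4e1c*, had 276 and 266 CPM in ‘Mosaic’, 353 and 318 CPM in ‘Ubiquitous’, and 326 and 343 CPM in ‘Uninjected’ libraries. Its ‘Mosaic’ values were the lowest 2 of the 6, with a difference of -0.19 from ‘Uninjected’ (SE 0.22, limma adjusted p = 0.793). For the cap-binding homologue *eif4e2rs1*, the means were 162 CPM in ‘Mosaic’, 153 in ‘Ubiquitous’ and 151 in ‘Uninjected’ cells.

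The scaffold *EIF4G1* had 244 and 250 CPM in ‘Mosaic’, 281 and 261 CPM in ‘Ubiquitous’, and 274 and 294 CPM in ‘Uninjected’ libraries. *EIF4G2* encodes a relative that lacks the eIF4E-binding part, and 2 genes carry this symbol. *EIF4G2* (ENSDARG00000057167) had 226 and 225 CPM in ‘Mosaic’, 127 and 174 CPM in ‘Ubiquitous’, and 120.0 and 141 CPM in ‘Uninjected’ libraries. Both ‘Mosaic’ values lay above the other 4, and ‘Mosaic’ minus ‘Uninjected’ was 0.53 (SE 0.22, limma adjusted p = 0.365). *EIF4G2* (ENSDARG00000020377) had 138 and 137 CPM in ‘Mosaic’, 92.6 and 145 CPM in ‘Ubiquitous’, and 51.4 and 106 CPM in ‘Uninjected’ libraries, and ‘Mosaic’ minus ‘Uninjected’ was 0.45 (SE 0.23, limma adjusted p = 0.482). ‘Ubiquitous’ minus ‘Uninjected’ was 0.10 (SE 0.22) and 0.25 (SE 0.23) for these copies, and -0.05 and 0.07 without ‘Ubiquitous’ lot 2.

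Of the eIF4A helicases, *eif4a1a* gave 77.2% of the pooled counts of its set. It had 336 and 254 CPM in ‘Mosaic’, 226 and 290 CPM in ‘Ubiquitous’, and 428 and 417 CPM in ‘Uninjected’ libraries. The ‘Uninjected’ libraries were the highest 2 of the 6. ‘Ubiquitous’ minus ‘Uninjected’ was -0.51 (SE 0.23, limma adjusted p = 0.700) and ‘Mosaic’ minus ‘Uninjected’ was -0.36 (SE 0.23, limma adjusted p = 0.601). Its copy *eif4a1b* had 55.2 and 41.6 CPM in ‘Mosaic’, 40.5 and 0 CPM in ‘Ubiquitous’, and 34.3 and 32.7 CPM in ‘Uninjected’ libraries, with a positive ‘Mosaic’ minus ‘Uninjected’ difference of 0.21 (SE 0.20). *EIF4A2* had 59.8 and 33.3 CPM in ‘Mosaic’, 49.2 and 57.9 CPM in ‘Ubiquitous’, and 34.3 and 75.6 CPM in ‘Uninjected’ libraries, and its groups overlapped.

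*EIF4A3*, which carries the family name but is a core protein of the exon junction complex, was the highest eIF4 gene. It had 2403 and 2926 CPM in ‘Mosaic’, 2017 and 2548 CPM in ‘Ubiquitous’, and 2159 and 1982 CPM in ‘Uninjected’ libraries. The ‘Mosaic’ values lay above the ‘Uninjected’ values and overlapped those of ‘Ubiquitous’. The helicase cofactor *EIF4B* had 1390 and 1228 CPM in ‘Mosaic’, 1100 and 753 CPM in ‘Ubiquitous’, and 943 and 1355 CPM in ‘Uninjected’ libraries. ‘Mosaic’ minus ‘Ubiquitous’ was 0.22 for *EIF4A3* (SE 0.25, limma adjusted p = 0.738) and 0.43 for *EIF4B* (SE 0.24, limma adjusted p = 0.448). *EIF4H*, a related cofactor, had 456 and 337 CPM in ‘Mosaic’, 402 and 203 CPM in ‘Ubiquitous’, and 189 and 390 CPM in ‘Uninjected’ libraries, and its groups overlapped. The minor copy of *EIF4B*, *eif4ba*, had 69.0 and 33.3 CPM in ‘Mosaic’, 26.0 and 29.0 CPM in ‘Ubiquitous’, and 0 and 49.0 CPM in ‘Uninjected’ libraries. ‘Ubiquitous’ minus ‘Uninjected’ was -0.23 (SE 0.24) for *EIF4B* and 0.01 (SE 0.22) for *eif4ba*.

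The eIF5A genes encode the only proteins known to carry hypusine, a modified lysine, and help the ribosome through stretches that stall it. *eif5a* had 1321 and 1091 CPM in ‘Mosaic’, 1068 and 1100 CPM in ‘Ubiquitous’, and 1508 and 1177 CPM in ‘Uninjected’ libraries. *EIF5A2* had 1321 and 1345 CPM in ‘Mosaic’, 1010 and 869 CPM in ‘Ubiquitous’, and 1097 and 1224 CPM in ‘Uninjected’ libraries. Only *EIF5A2* had its ‘Mosaic’ values above the other 4 libraries. ‘Mosaic’ minus ‘Uninjected’ was -0.09 (SE 0.24) for *eif5a* and 0.20 (SE 0.23) for *EIF5A2*. ‘Mosaic’ minus ‘Ubiquitous’ was 0.14 (SE 0.24) and 0.43 (SE 0.23, limma adjusted p = 0.419), and the difference between the paralogs was not tested.

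Among the elongation factors, *eef1a1l1* had 1362 and 1323 counts in ‘Mosaic’ (6270 and 5507 CPM), 1492 and 184 in ‘Ubiquitous’ (4317 and 5327 CPM), and 317 and 2466 in ‘Uninjected’ libraries (5433 and 5040 CPM). On this scale the ‘Mosaic’ libraries were the highest 2 of the 6. The rlog values were 9.93 and 9.79 for ‘Mosaic’ libraries, 9.43 and 9.73 for ‘Ubiquitous’ libraries, and 9.80 and 9.55 for ‘Uninjected’ libraries, so that ‘Mosaic’ and ‘Uninjected’ overlapped. ‘Mosaic’ minus ‘Ubiquitous’ was 0.28 (SE 0.25, limma adjusted p = 0.680) and ‘Mosaic’ minus ‘Uninjected’ was 0.18 (SE 0.25, limma adjusted p = 0.835).

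*EEF1G*, a structural subunit of the eEF1B exchange complex, had 1478 and 1195 CPM in ‘Mosaic’, 1250 and 1274 CPM in ‘Ubiquitous’, and 1268 and 1343 CPM in ‘Uninjected’ libraries. Its groups overlapped in all 3 comparisons, and its differences lay between -0.03 and 0.09. The catalytic subunit *EEF1B2* was far lower, with 64.4 and 29.1 CPM in ‘Mosaic’, 66.6 and 57.9 CPM in ‘Ubiquitous’, and 103 and 71.5 CPM in ‘Uninjected’ libraries. ‘Mosaic’ minus ‘Uninjected’ was -0.39 (SE 0.24, limma adjusted p = 0.566), and -0.16 without ‘Mosaic’ lot 2. Of the 6 tested elongation factors, only *EEF1B2* had both ‘Mosaic’ rlog values below both ‘Uninjected’ values, where 19.9% of all genes did. The margin was narrow, at 3.32 in ‘Mosaic’ lot 1 against 3.34 in ‘Uninjected’ lot 2.

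The main translocase gene, *eef2b*, had 1482 and 970 CPM in ‘Mosaic’, 1082 and 753 CPM in ‘Ubiquitous’, and 1217 and 1241 CPM in ‘Uninjected’ libraries. Its ‘Uninjected’ values were above the ‘Ubiquitous’ values and between the ‘Mosaic’ values. *eef2a.1* averaged 122 CPM in ‘Mosaic’, 99.9 in ‘Ubiquitous’ and 130 in ‘Uninjected’ cells. *EEF1AKMT1*, a methyltransferase of eEF1A rather than a factor, had 62.6, 59.3 and 35.8 CPM in ‘Mosaic’, ‘Ubiquitous’ and ‘Uninjected’ cells on average, with 0 counts in ‘Uninjected’ lot 1.

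Other genes of translation were counted from a list of 54 symbols that covers, among others, termination and poly(A)-binding factors, hypusine enzymes, kinases of eIF2 and eEF2, growth signalling and stress response genes. The list matched 46 genes with counts, of which 24 were tested. No hypusine enzyme and no kinase of eIF2 or eEF2 was among the 24. Of these 24, 0 passed in any of the 3 comparisons with limma, while 3, 1 and 3 had an unadjusted p under 0.05 in ‘Mosaic’ minus ‘Uninjected’, ‘Ubiquitous’ minus ‘Uninjected’ and ‘Mosaic’ minus ‘Ubiquitous’, where 11.3%, 6.76% and 13.0% of all genes did. The median differences over the 24 were 0.03, -0.01 and 0.14 in the same order. Positive differences numbered 14, 12 and 16 of the 24 in that order. Over all genes tested, 53.3%, 45.0% and 56.7% were positive.

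The spread between lots limits all of these values. Standard errors of the member differences lay between 0.20 and 0.29 log2 units. For 6 members in ‘Mosaic’, 1 in ‘Ubiquitous’ and 5 in ‘Uninjected’ cells, the 95% Poisson intervals of the 2 lots did not overlap. *EIF3CL* and *eef1a1l1* were each among these members in 2 groups. Leaving out either library of the groups compared in turn changed the sign of the difference for 20 of the 50 members in ‘Mosaic’ minus ‘Uninjected’, for 30 in ‘Ubiquitous’ minus ‘Uninjected’ and for 15 in ‘Mosaic’ minus ‘Ubiquitous’. The sign changes and the lots apart are given for members only, so they do not set the members apart from other genes. The largest absolute difference of any member was 0.90, for *EIF3L*, and a p-value that misses the threshold does not show that the groups were alike.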

How the data were processed

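CEL-Seq2 libraries of sorted zebrafish cells were analysed, 2 in each of 3 groups. The authors aligned reads to GRCz10 with Bowtie2 2.3.1, counted them per gene with HTSeq 0.6.1 and made the deposited log2 values with the rlog transformation of DESeq2. The table held 32266 genes, of which 18134 were at 0 in all libraries. Symbols were matched through Ensembl identifiers for 26433 genes.

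Groups were taken from the sample labels. Differences of mean rlog were tested with limma 3.58.1 (R 4.3.3, variance prior with a trend on the mean) in 1 fit of all 6 libraries. The test covered 3905 genes whose mean rlog reached 2, and Benjamini-Hochberg adjustment ran over all of them. An adjusted p under 0.1 was the threshold. The same fit was also run on simulated data, and its outcome is not given here.

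Counts per library were recovered by an inversion of rlog. Whole counts were found that return the deposited values within 1e-05 for all 14132 genes. CPM, shares and their intervals (Wilson for shares, exact Poisson for CPM, both 95%) rest on these inferred counts, and voom weights on them gave an alternative test. rlog differences understate changes of genes with low counts, and more so in the shallow libraries.

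Values in every library were given for the 10 members with the smallest unadjusted p over the 3 comparisons, the 5 with the highest mean rlog, and paralogs that differ in sign. Any other tested member could be named. The members and lists were chosen with earlier results of these data known. Alternatives were other filters, scalings, variance priors, thresholds, a lot block, voom weights and subsets of libraries. Sequences and coordinates were not used here.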

Additional observations from a re-analysis of the deposited data

How the results depend on the processing

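No median over the members, and none of the differences with an unadjusted p under 0.05, changed sign under the alternatives run. The count of members past the threshold stayed at 0 in each comparison, except in the 4 deepest libraries, where it was 1 for ‘Mosaic’ minus ‘Uninjected’ (*EIF1*) and 3 for ‘Mosaic’ minus ‘Ubiquitous’ (*EIF3L*, *EIF4EBP3* and *EIF4E3*), and under a crossed lot block. The 4 deepest libraries hold 1 ‘Ubiquitous’ and 1 ‘Uninjected’ library, which are assumed to vary like the 2 ‘Mosaic’ lots, the only source of spread there. Leaving out 1 library at a time gave 0 members in each comparison (smallest limma adjusted p of 0.114 without a library of the groups compared), and medians of 0.01 to 0.11 for ‘Mosaic’ minus ‘Uninjected’, -0.10 to -0.05 for ‘Ubiquitous’ minus ‘Uninjected’ and 0.11 to 0.18 for ‘Mosaic’ minus ‘Ubiquitous’. With voom weights the median of ‘Mosaic’ minus ‘Ubiquitous’ was 0.28 (0.17 on rlog values), and *EIF3L* had -1.69 for ‘Ubiquitous’ minus ‘Uninjected’. The cause of these shifts was not tested.

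Over all genes, 54, 19 and 52 passed in ‘Mosaic’ minus ‘Uninjected’, ‘Ubiquitous’ minus ‘Uninjected’ and ‘Mosaic’ minus ‘Ubiquitous’. Without a filter these counts were 6, 7 and 0, with a mean rlog of at least 4 they were 18, 5 and 24, and in the 4 deepest libraries 142, 54 and 159. At an adjusted p under 0.05, 33 passed in ‘Mosaic’ minus ‘Ubiquitous’. Leaving out 1 library at a time gave 25 to 64, 14 to 25 and 2 to 67 genes. The lowest counts in ‘Mosaic’ minus ‘Ubiquitous’ were 2 without either ‘Mosaic’ lot and 10 without ‘Ubiquitous’ lot 2, and those in ‘Mosaic’ minus ‘Uninjected’ were 28 and 25 without ‘Mosaic’ lot 1 and lot 2. The labels do not say whether lots of the same number were prepared together. Deviations from the group means correlated at -0.059, -0.12 and -0.039 between the groups, which cannot settle this, since depth also differs between lots. With the lot number as a replicate block 0 members and 57, 23 and 50 genes passed. With the crossed pairing, chosen after seeing the data, 2 members and 177 genes passed for ‘Mosaic’ minus ‘Uninjected’. Depth limits ‘Ubiquitous’ lot 2 most, where 33 of the 50 tested members had fewer than 10 counts.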
